A study of Mus musculus with 24 samples.

Results

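The small leucine-rich proteoglycans are a family of secreted matrix proteins, and the transcripts of 10 of them were followed here in mouse hearts under pressure load and after exercise. The members were taken by symbol: Dcn (decorin), Bgn (biglycan), Aspn (asporin), Lum (lumican), Fmod (fibromodulin), Prelp, Omd (osteomodulin), Ogn (osteoglycin), Podn (podocan) and Ecm2. Each matched 1 Ensembl identifier, so that 10 of the 43432 genes of the count table were studied, and all 10 passed the filter on low counts in every comparison. RNA from hearts of C57BL/6 mice was sequenced in 24 libraries, 4 in each of 6 groups: Sedentary, Running (wheel running, 8 weeks), TAC-LVH (transverse aortic constriction, or TAC, for 2 weeks, an operation that narrows the aortic arch and raises the pressure the left ventricle pumps against), TAC-HF (TAC for 8 weeks), and the sham-operated groups Sham-LVH and Sham-HF. LVH stands for left ventricular hypertrophy and HF for heart failure. No group carries a transgene or deletion by its labels, which give neither sex nor age, nor a time after surgery for the shams. Nothing in the labels says which chamber was taken or that hearts were pooled, and the p-values measure the spread between these libraries.

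The core of these proteins is a row of leucine-rich repeats that binds to collagen fibrils and limits how thick they grow. Most members carry sulfated sugar chains (chondroitin, dermatan or keratan sulfate), and several also hold growth factors such as TGF-beta in the matrix or act on Toll-like receptors when set free. In the heart they are made mainly by fibroblasts, and their level is known to rise in scarred or overloaded myocardium.

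Library totals ran from 16802939 to 39512101 estimated counts (median 22845050). Mitochondrially encoded genes took 50.7% to 58.4% of counts in TAC-LVH, 59.8% to 64.5% in Sham-LVH, 52.7% to 57.6% in TAC-HF and 61.3% to 67.0% in Sham-HF. The heart label fitted the markers: the 10 cardiomyocyte genes summed to 32515 to 57286 CPM (normalized read counts, scaled to a common library size) across the 24 libraries. The 6 atrial cardiomyocyte markers summed to 12.6 to 48.3 CPM. Within the members the depth ranged widely, from 2511 to 15092 counts per library for Dcn down to 5 to 76 for Omd, so that values of Omd are the least precise. CPM are normalized over all 24 libraries by the TMM method. A call means an adjusted p under 0.05 in edgeR's quasi-likelihood test, with the adjustment over all genes tested. In RNA from heart tissue a larger number of cells of a type and more RNA per cell cannot be told apart.

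Decorin was the most abundant member per length of transcript in every group. Set per kilobase of the principal transcript, Dcn stood at 104 CPM per kb in Sedentary hearts and 272 in TAC-LVH hearts and ranked first in all 6 groups. It was followed in Sedentary hearts by Bgn (34.4), Ogn (15.5), Lum (8.62), Prelp (6.99), Aspn (4.96), Ecm2 (2.91), Podn (1.56), Fmod (0.904) and Omd (0.230 CPM per kb). In TAC-LVH hearts Bgn (103 CPM per kb) was followed by Lum (48.1), Ogn (41.1) and Aspn (39.1). Against the order in Sham-LVH hearts, Lum had changed places with Ogn and Fmod with Podn. The order of the upper members depends on the length used: with the union of all annotated exons, which takes the length of Dcn from 1.76 to 5.84 kb, Dcn still ranked first, but Bgn fell to rank 3 or 4 in every group except TAC-HF.

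After 2 weeks of TAC, 9 of the 10 members rose and 0 fell, with Podn as the exception. Of all 14224 genes tested, 33.2% were called, 17.1% higher and 16.1% lower. The member increases ran from 1.61-fold for Ogn to 7.65-fold for Fmod, with a median log2 fold change of 1.28 against 0.00 over all genes tested (-0.002 before rounding). After 8 weeks 9 of 10 were again called higher and 0 lower, where 29.6% of 13621 genes were called, 14.9% higher and 14.7% lower, and the median log2 fold change was 1.06. DESeq2 also called 0 members lower at either time, and at an unadjusted p under 0.05 Podn was lower at 2 weeks and no member at 8 weeks (edgeR, with 42.6% and 40.6% of genes under that p in either direction). In 9 members at 2 weeks and 8 at 8 weeks, all 4 TAC values lay above all 4 sham values, a separation that 16.8% and 15.7% of tested genes showed. In 0 members all TAC values lay below all sham values, as they did for 15.6% and 13.5% of genes.

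**Figure D1:**
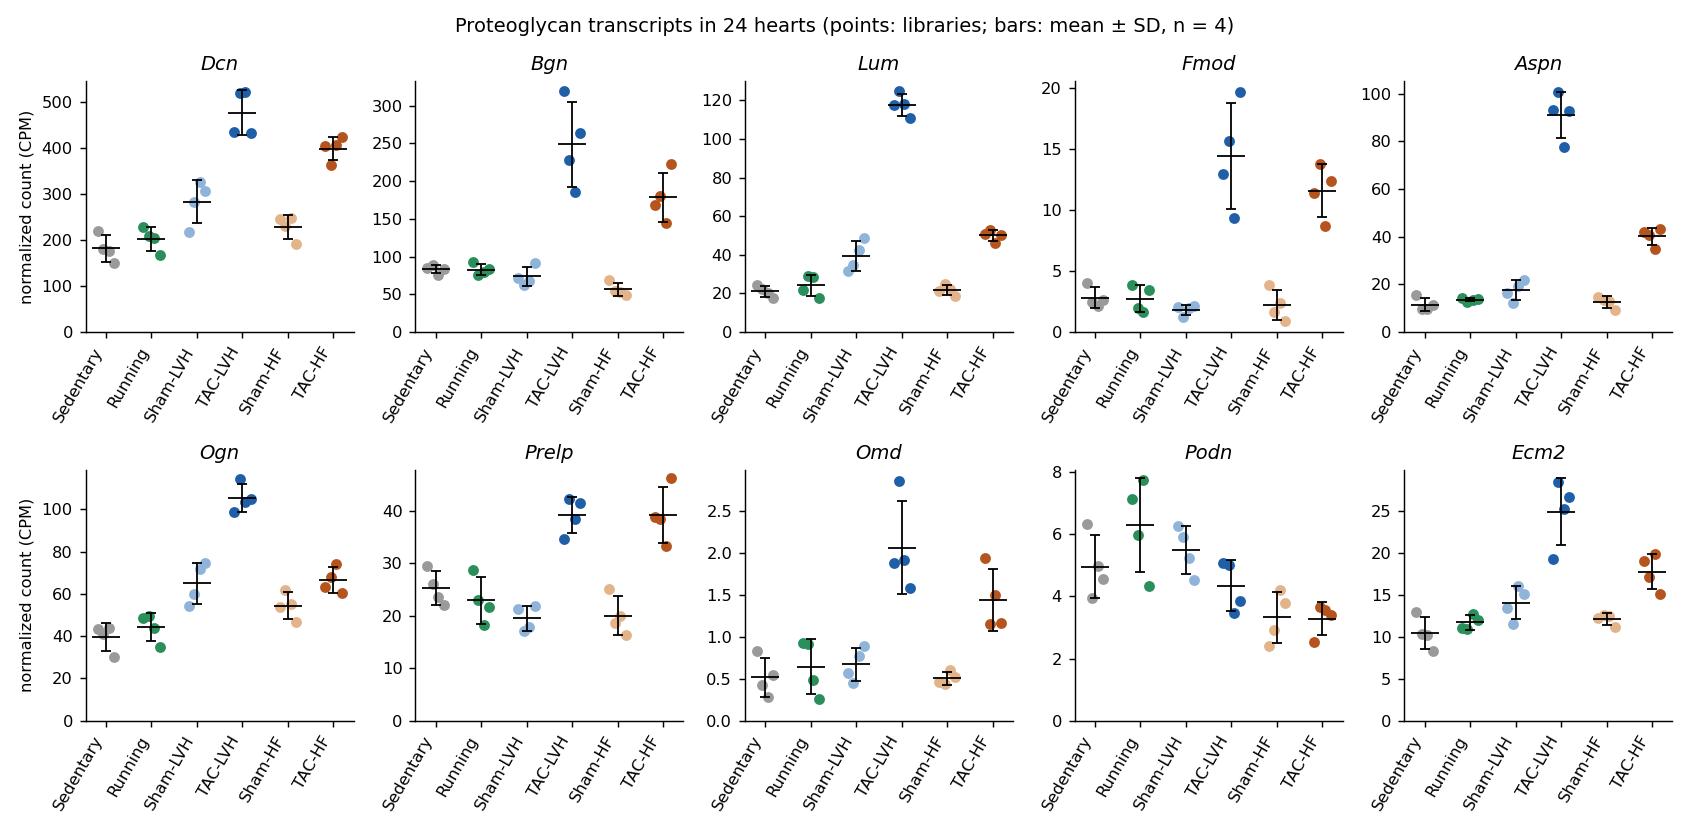
Normalized counts (CPM, each axis from 0) of the 10 genes in 24 hearts, with points for libraries and bars for the mean ± SD of 4 libraries per group. The TAC points stand above their sham points for all genes except Podn, at both times, and Ogn at 8 weeks.

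Most of the members lie in gene clusters, and cluster neighbours did not change by the same amount. On mouse chromosome 13 the order is Ecm2, Aspn, Omd, Ogn, next to each other on the same strand. Their 2-week folds were 1.76, 5.16, 2.97 and 1.61, so that the smallest increase among the called members lies in 1 cluster with the next largest after Fmod. Dcn and Lum are neighbours on chromosome 10 (1.68-fold and 2.98-fold), followed by Kera and Epyc, and Prelp and Fmod are neighbours on chromosome 1 (2.00-fold and 7.65-fold) on opposite strands. Bgn lies alone on chromosome X and Podn on chromosome 4. Cenpp runs antisense across the chromosome 13 cluster and shares exonic sequence with Aspn, and the noncoding gene Gm15851 does so with Prelp. Their reads cannot be told apart without strand, but Cenpp was at most 0.828 CPM and Gm15851 at most 0.276 CPM in any library, far below Aspn and Prelp.

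The sequence just before the start of transcription is shown for the cluster neighbours Aspn and Ogn, whose fold changes lie far apart, and for Fmod and Bgn, which rose strongly from a low and a high base. RefSeq windows (build GRCm38.p6, 250 bases before the start, 5′ to 3′ on the gene's strand) were found for 8 of 10 members, not for Dcn and Lum. Capitals mark matches, on either strand, to the TATA box TATAAA, the AP-1 site TGANTCA, the Smad box CAGAC or the MCAT element GGAATG.
Aspn (chr13:49544193-49544442, plus strand): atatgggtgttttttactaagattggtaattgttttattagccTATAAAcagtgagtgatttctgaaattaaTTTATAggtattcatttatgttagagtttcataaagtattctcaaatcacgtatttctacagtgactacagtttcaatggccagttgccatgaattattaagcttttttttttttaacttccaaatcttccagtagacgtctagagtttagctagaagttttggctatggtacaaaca
Ogn (chr13:49607765-49608014, plus strand): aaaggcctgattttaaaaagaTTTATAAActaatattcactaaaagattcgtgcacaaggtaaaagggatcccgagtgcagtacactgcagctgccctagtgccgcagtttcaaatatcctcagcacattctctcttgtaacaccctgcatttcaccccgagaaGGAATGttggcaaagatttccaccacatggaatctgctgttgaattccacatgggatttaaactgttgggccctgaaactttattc
Fmod (chr1:134037004-134037253, plus strand): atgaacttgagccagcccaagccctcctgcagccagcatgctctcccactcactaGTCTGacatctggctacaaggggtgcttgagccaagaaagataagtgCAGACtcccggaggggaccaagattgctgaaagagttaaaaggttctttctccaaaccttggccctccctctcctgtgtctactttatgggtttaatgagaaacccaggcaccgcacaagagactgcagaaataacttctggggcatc
Bgn (chrX:73483351-73483600, plus strand): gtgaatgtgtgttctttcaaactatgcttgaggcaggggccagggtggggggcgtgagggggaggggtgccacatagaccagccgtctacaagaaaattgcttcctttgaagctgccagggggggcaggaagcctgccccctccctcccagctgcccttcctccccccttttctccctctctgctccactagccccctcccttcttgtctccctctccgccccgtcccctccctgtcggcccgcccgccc
These windows differ most in base composition: G and C make up 30.0% of the bases for Aspn, 42.0% for Ogn, 51.2% for Fmod and 64.4% for Bgn (median of all 32851 windows 52.4%), and 78.0% for the first of the 2 windows of Podn. TATAAA occurs in the windows of Aspn and Ogn (2 matches each, those of Ogn overlapping) and in 12.4% of all windows. CAGAC occurs in those of Fmod and Prelp and in 42.2% of all windows, and GGAATG in that of Ogn and in 12.6%. The letters TGANTCA are in none of the 9 member windows and in 6.75% of all windows. A match describes the letters and not a site in use.

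The class of proteoglycans that carry chondroitin or dermatan sulfate is headed by decorin, which binds collagen type I and TGF-beta. Dcn was at 218, 283, 327 and 306 CPM in the Sham-LVH libraries and at 436, 520, 521 and 433 CPM in the TAC-LVH libraries. The lowest TAC heart exceeded the highest sham heart, by a factor smaller than that between the shams themselves. Dcn rose 1.68-fold (log2 fold change 0.75, SE 0.14; edgeR adjusted p = 0.000997). At 8 weeks the Sham-HF libraries had 247, 231, 247 and 192 CPM and the TAC-HF libraries 404, 363, 407 and 424 CPM, a rise of 1.71-fold (0.78, SE 0.09; edgeR adjusted p = 4.2e-05). Both TAC groups were thus clear of their controls, and over the 6 groups the values of Sedentary, Running, Sham-HF and Sham-LVH hearts overlapped from each group to the next, while TAC-HF and TAC-LVH stood above them and apart from each other.

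Biglycan, the closest relative of decorin and a ligand of Toll-like receptors when it is soluble, had a larger fold change than decorin at both times. Its Sham-LVH libraries had 71.3, 62.9, 68.2 and 92.1 CPM and its TAC-LVH libraries 319, 228, 186 and 263 CPM. Every loaded heart was at more than 2 times the highest sham heart, with a wide spread among the loaded ones. The increase was 3.36-fold at 2 weeks (log2 fold change 1.75, SE 0.16; edgeR adjusted p = 8.33e-06). At 8 weeks Sham-HF had 68.9, 54.2, 53.1 and 49.2 CPM and TAC-HF 168, 180, 144 and 222 CPM, a rise of 3.11-fold (1.64, SE 0.13; edgeR adjusted p = 4.47e-06). The ranges of the TAC-LVH and TAC-HF hearts overlapped.

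Asporin, which shares the repeats of decorin and biglycan, carries a run of acidic residues and binds TGF-beta, had a larger fold change than either of them. Aspn stood at 16.3, 12.3, 19.5 and 22.0 CPM in Sham-LVH and at 93.3, 100.7, 77.8 and 92.5 CPM in TAC-LVH. All loaded hearts lay above all shams by a wide margin. The rise was 5.16-fold (log2 fold change 2.37, SE 0.16; edgeR adjusted p = 1.2e-06). At 8 weeks the Sham-HF values of 14.7, 13.3, 13.0 and 9.06 CPM stood against 41.8, 40.9, 34.9 and 43.0 CPM in TAC-HF, which was 3.14-fold higher (1.65, SE 0.12; edgeR adjusted p = 1.84e-06). Aspn stood lower in TAC-HF than in TAC-LVH hearts, with no overlap between them. The difference between the effects (8 weeks minus 2 weeks) was -0.71 on the log2 scale (SE 0.21) and missed the threshold in edgeR (adjusted p = 0.0913), while DESeq2 gave 0.0323.

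Among the members that carry keratan sulfate, lumican and fibromodulin bind the same region of collagen type I. Lum had 31.5, 35.0, 42.3 and 48.5 CPM in Sham-LVH and 118, 125, 118 and 111 CPM in TAC-LVH. The 4 loaded hearts were tightly grouped and all above the shams. Lum rose 2.98-fold (log2 fold change 1.58, SE 0.13; edgeR adjusted p = 2.47e-06). At 8 weeks Sham-HF had 21.2, 24.9, 22.2 and 18.6 CPM and TAC-HF 51.0, 52.9, 46.3 and 50.2 CPM. These hearts were 2.27-fold above their shams (1.1803, SE 0.09; edgeR adjusted p = 2.06e-06), although their level overlapped that of the Sham-LVH hearts.

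Fibromodulin showed the largest fold change of the 10 genes at both times, from a low base. Fmod was at 2.03, 1.235, 1.99 and 2.10 CPM in Sham-LVH and at 13.0, 15.7, 9.38 and 19.6 CPM in TAC-LVH. The lowest loaded heart was more than 4 times the highest sham heart. The rise was 7.65-fold (log2 fold change 2.94, SE 0.24; edgeR adjusted p = 7.58e-06). The Sham-HF libraries had 3.82, 1.605, 2.40 and 0.935 CPM, a wide spread, against 11.4, 13.8, 8.70 and 12.4 CPM in TAC-HF (5.12-fold; 2.36, SE 0.32; edgeR adjusted p = 0.00102).

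Prelp, which binds collagen and the heparan sulfate of basement membranes, was nearly 2-fold higher at both times. Its values were 21.2, 17.1, 17.9 and 21.9 CPM in Sham-LVH and 34.6, 42.2, 38.3 and 41.6 CPM in TAC-LVH (log2 fold change 1.00, SE 0.11; edgeR adjusted p = 1.75e-05). At 8 weeks they were 25.2, 18.6, 19.9 and 16.4 CPM in Sham-HF and 38.7, 38.5, 33.3 and 46.3 CPM in TAC-HF (0.94, SE 0.12; edgeR adjusted p = 0.000132). The mean level in the loaded hearts was alike at the 2 times, at 39.2 CPM in each.

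Osteomodulin, known from bone and tooth matrix, was scarce throughout. Omd had 0.570, 0.449, 0.775 and 0.890 CPM in Sham-LVH and 1.88, 2.86, 1.91 and 1.58 CPM in TAC-LVH, which rest on 8 to 25 and 52 to 76 counts per library. It was 2.97-fold higher (log2 fold change 1.57, SE 0.27; edgeR adjusted p = 0.000534). At 8 weeks the sham mean was 0.505 ± 0.0748 and the TAC mean 1.43 ± 0.370 CPM (SD, n = 4; 1.47, SE 0.27; edgeR adjusted p = 0.00119), again with no overlap.

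Osteoglycin, also called mimecan, is a shorter member of another class. Ogn stood at 54.2, 59.9, 71.8 and 74.5 CPM in Sham-LVH and at 98.5, 115, 104 and 105 CPM in TAC-LVH. All loaded hearts were above all shams, and the rise of 1.61-fold was the smallest among the members called (log2 fold change 0.69, SE 0.11; edgeR adjusted p = 0.00047). At 8 weeks the groups overlapped: Sham-HF had 53.7, 62.1, 55.1 and 46.5 CPM and TAC-HF 63.4, 68.1, 74.3 and 60.6 CPM. The call at 8 weeks was marginal (0.27, SE 0.10; edgeR adjusted p = 0.0495). It was lost without Sham-HF replicate 1, 3 or 4 or without TAC-HF replicate 1, 2 or 3, where the adjusted p ran from 0.0721 to 0.179, and DESeq2 gave 0.0572.

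Ecm2, a matrix gene whose protein shares the leucine-rich repeats, rose less than 2-fold at both times. It had 13.4, 11.6, 16.0 and 15.1 CPM in Sham-LVH and 19.2, 28.4, 25.2 and 26.6 CPM in TAC-LVH (1.76-fold; log2 fold change 0.82, SE 0.13; edgeR adjusted p = 0.000476). At 8 weeks it had 12.2, 12.6, 12.5 and 11.1 CPM in Sham-HF and 19.0, 17.1, 19.8 and 15.1 CPM in TAC-HF (1.44-fold; 0.53, SE 0.10; edgeR adjusted p = 0.00162). The 2 groups were apart at both times.

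Podocan, which binds collagen type I and is known to restrain smooth muscle growth, was the only one of the 10 not called higher at either time. Podn had 6.27, 5.89, 5.24 and 4.52 CPM in Sham-LVH and 5.07, 5.00, 3.46 and 3.84 CPM in TAC-LVH. The groups overlapped and the mean was lower under load, with an edgeR adjusted p of 0.108 (log2 fold change -0.34, SE 0.15). At 8 weeks the values of 2.39, 2.91, 4.21 and 3.80 CPM in Sham-HF and 2.52, 3.65, 3.56 and 3.40 CPM in TAC-HF covered the same range (-0.03, SE 0.19; edgeR adjusted p = 0.934). Scaled to library totals, Podn turned to 0.09 and 0.31, again not called (edgeR adjusted p = 0.696 and 0.176), while the median over all genes moved to 0.41 at 2 weeks and 0.33 at 8 weeks. Relative to that median Podn lay lower at 2 weeks and level with it at 8 weeks. At 8 weeks its sign also turned when Sham-HF replicate 3 or 4 or TAC-HF replicate 1 was left out (0.04 to 0.10). The other 9 members kept their direction in both TAC comparisons under that scaling.

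**Figure D2:**
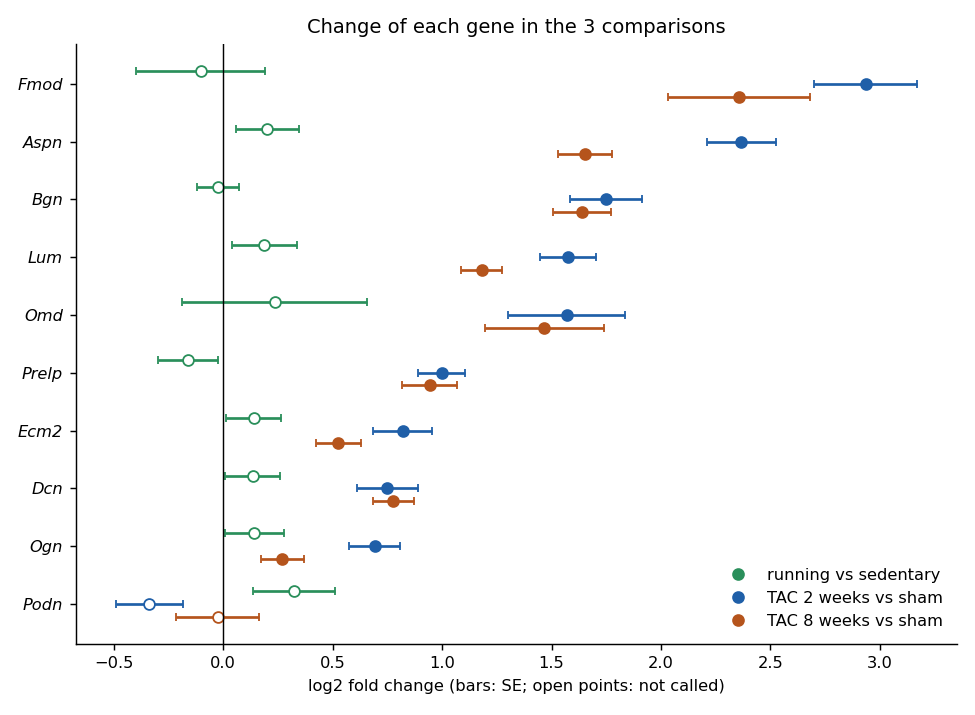
Log2 fold change (x axis) of each gene in running against sedentary and in each TAC group against its sham, with bars for the standard error and open points for values not called by edgeR at an adjusted p under 0.05. Fmod and Aspn lie farthest to the right and Podn at or left of 0 after TAC, while the running values all lie between -0.16 and 0.32.

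After wheel running no member differed from sedentary hearts beyond the spread between libraries. EdgeR called 0 of 10 members, as it did 0% of 13824 genes (665 genes and 0 members had an unadjusted p under 0.05, and DESeq2 called 9 genes and 0 members). The groups overlapped for all 10 members, while 1.72% of genes were separated upward and 1.31% downward. Dcn was at 221, 180, 177 and 151 CPM in Sedentary and 228, 209, 205 and 167 CPM in Running hearts, Bgn at 83.3 ± 5.59 and 82.7 ± 7.34 CPM, and Lum at 21.1 ± 2.82 and 24.3 ± 5.42 CPM (SD, n = 4). The largest estimate was that of Podn, with 6.33, 3.94, 4.97 and 4.56 CPM in Sedentary and 7.13, 5.96, 7.75 and 4.32 CPM in Running hearts (log2 fold change 0.32, SE 0.19; edgeR adjusted p = 1.000). For Omd the estimate was 0.24 with a standard error of 0.42, the widest of the 10, at 5 to 27 counts per library.

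The TAC effect was set against the running effect in 1 model for each time. At 2 weeks the TAC effect exceeded the running effect for 8 of 10 members, a call that 9.5% of 14729 genes shared in that direction (9.56% in the other, with 0 members, and 19.1% in either). The excess was largest for Fmod (3.05 on the log2 scale, SE 0.41; edgeR adjusted p = 9.73e-05), Aspn (2.16; 2.45e-06) and Bgn (1.77; 4.03e-06). Omd (1.34, SE 0.51; edgeR adjusted p = 0.0717) and Podn (-0.67, SE 0.26; 0.0762) missed the threshold. At 8 weeks 6 of 10 passed, beside 5.74% of 14252 genes (5.35% in the other direction, with 0 members, and 11.1% in either), namely Dcn, Bgn, Lum, Fmod, Aspn and Prelp. Both contrasts use the same Running and Sedentary libraries.

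No member had an 8-week TAC effect called different from its 2-week effect: edgeR called 0 of 10, beside 1.36% of 14463 genes (0.933% larger and 0.422% smaller at 8 weeks), with an unadjusted p under 0.05 for 3 members, as for 19.1% of genes. DESeq2 called 1 member, as it did 4.33% of genes. The estimate was lower at 8 weeks for 8 of 10 members, all except Dcn and Podn, beside a median of -0.01 over all genes. Those of Bgn (-0.11, SE 0.22), Omd (-0.09, SE 0.40) and Prelp (-0.05, SE 0.17) lay within 1 standard error of 0. After Aspn the largest decreases were those of Fmod (-0.57, SE 0.44), Ogn (-0.41, SE 0.16) and Lum (-0.39, SE 0.16; edgeR adjusted p = 0.194). The sham groups also differed from each other. Lum was lower in Sham-HF than in Sham-LVH (log2 difference -0.84, SE 0.13; edgeR adjusted p = 0.00974), with no overlap, and so was Podn (-0.71, SE 0.18; edgeR adjusted p = 0.0446). These were 2 of 10 members, where 1.44% of 13656 genes were called lower, 2.2% higher and 3.64% in either direction. By separation of the groups they were 2 members lower and 0 higher, beside 6.39% and 6.44% of genes. The labels give no difference in treatment between the sham groups.

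Ratios of members to Dcn were taken within each library, so that they do not depend on any scaling between libraries. The log2 ratio of Bgn to Dcn counts moved from -1.94 ± 0.318 in Sham-LVH to -0.96 ± 0.466 in TAC-LVH (SD, n = 4), and from -2.03 ± 0.163 to -1.18 ± 0.257 at 8 weeks. That of Aspn to Dcn moved from -4.03 ± 0.351 to -2.39 ± 0.246 and from -4.21 ± 0.150 to -3.32 ± 0.165. Both ratios separated all loaded from all sham hearts. The ratio of Ogn to Dcn overlapped between sham and TAC at 2 weeks (-2.12 ± 0.111 and -2.18 ± 0.119; exact two-sided permutation p = 0.543). At 8 weeks it was lower in all TAC hearts than in all shams (-2.59 ± 0.185 against -2.08 ± 0.136; exact permutation p = 0.0286). The ratio of Podn to Dcn was likewise lower in all TAC hearts at 2 weeks (-6.79 ± 0.335 against -5.68 ± 0.433; exact permutation p = 0.0286). Of 27 such tests, 12 after TAC and 1 after running (Prelp, -0.30) reached 0.0286, the smallest p that 4 against 4 libraries allow, and none passed 0.05 after adjustment over the 27 (adjusted p = 0.0593 for each of these).

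**Figure D3:**
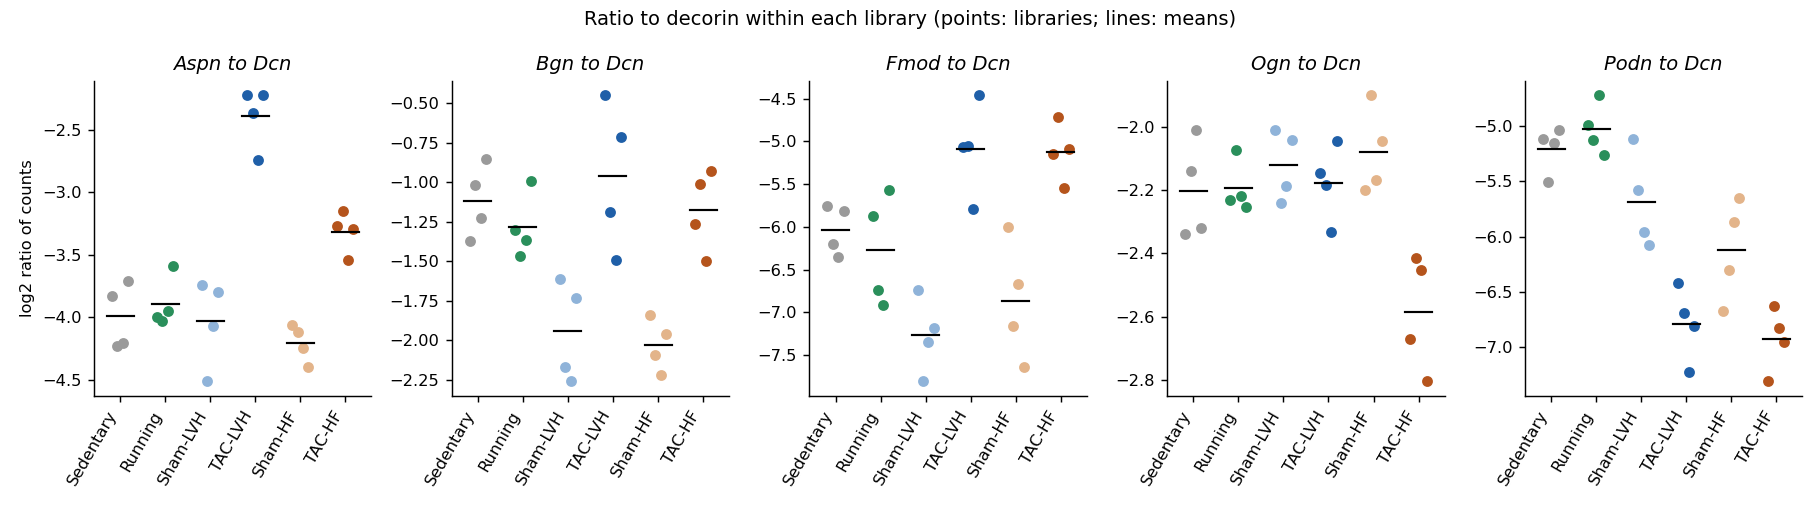
Log2 ratio of the counts of 5 genes to those of Dcn (y axes do not start at 0), with points for libraries and lines for the mean of 4. The ratios of Aspn, Bgn and Fmod are higher in each TAC group than in its sham, that of Podn is lower at 2 weeks, and that of Ogn is lower at 8 weeks.

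As a share of the summed CPM per kb of the 10 genes, Dcn went from 63.7% ± 3.52 in Sham-LVH to 51.5% ± 4.68 in TAC-LVH and from 65.2% ± 1.2 to 58.9% ± 2.58 at 8 weeks (SD, n = 4). Bgn went from 12.1% to 19.5% and from 11.7% to 19.1%, and Aspn from 2.97% to 7.41% and from 2.67% to 4.47%. The sum itself was 207 to 283 CPM per kb in Sham-LVH, 508 to 556 in TAC-LVH, 168 to 217 in Sham-HF, 368 to 418 in TAC-HF, 155 to 210 in Sedentary and 168 to 217 in Running hearts. The sum was therefore higher in every TAC heart than in any other heart. In the unoperated Sedentary hearts Bgn held 19.3% and Dcn 57.5%, so that their Bgn share lay near that of the TAC groups at a much lower sum. These shares rest on the length of the principal transcript and depend on it. With the union of all annotated exons, Dcn in TAC-LVH stood at 81.8 instead of 272 CPM per kb. Bgn then stood at 40.8 instead of 103, below Lum, which was at 48.1 with either length.

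**Figure D4:**
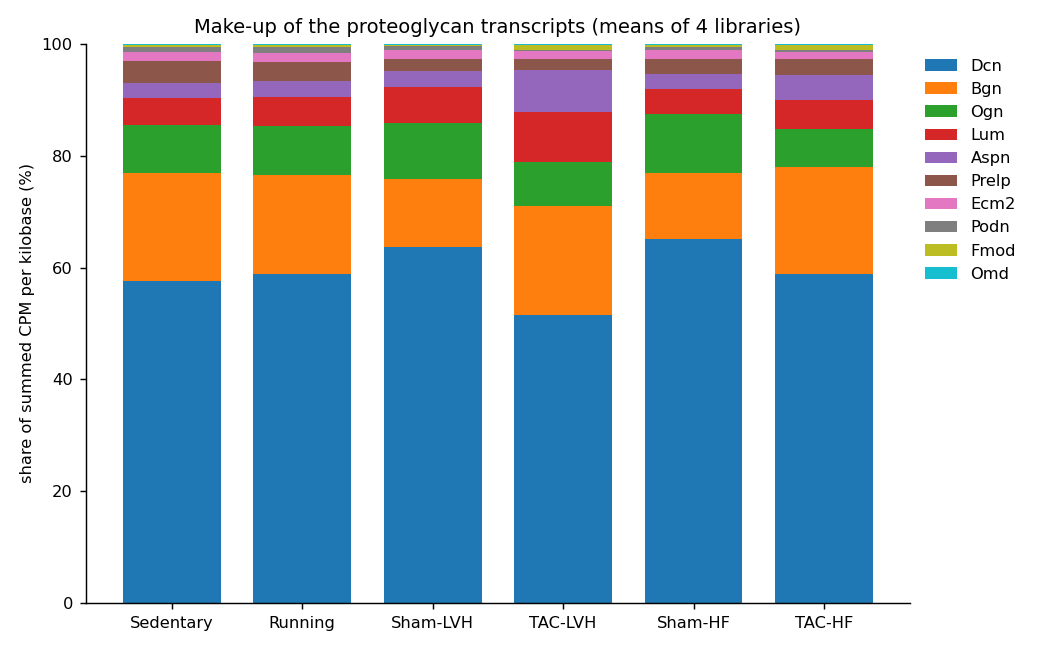
Mean share of each gene (4 libraries a group) in the summed CPM per kilobase of the 10 genes, stacked to 100%. With the length of the principal transcript, on which the shares depend, Dcn holds 51.5% to 65.2% in each group. Bgn and Aspn take larger shares in TAC-LVH and TAC-HF than in their shams.

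Over all 24 libraries the 45 pairs of members had Pearson correlations of log2 CPM between -0.34 and 0.96 (median 0.80), all 9 negative ones involving Podn. The libraries share their group, depth and scaling, so these values mostly restate the TAC difference. After the mean of each group was subtracted, the median was 0.29, and the highest values were those of Fmod with Prelp (0.77) and with Aspn (0.75), and of Dcn and Lum with Ogn (0.75 each). Of 7633 other genes with a mean of at least 5 CPM, those most like a member over the 24 libraries were Adcy7 (0.99) and Ltbp2 (0.98) for Bgn, Mmp2 and Naalad2 (0.98 each) for Aspn, Comp (0.98) and Col12a1 (0.97) for Fmod, Plxdc2 (0.97) and Sdc2 (0.96) for Lum, Tmsb4x and Ppia (0.98 each) for Dcn, Ace (0.94) and Crispld2 (0.93) for Prelp, Dstn (0.94) and Tmem123 (0.93) for Ogn, Timp2 and Colec12 (0.92 each) for Omd, and Gm22973 (0.96) and Ppia (0.94) for Ecm2. For Podn they were Ccdc85a and the circadian output gene Hlf (0.80 each). After subtraction of the group means Fn1 (0.91) and Aebp1 (0.89) were most like Bgn, and Comp (0.87) and Ccn2 (0.85) most like Fmod.

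Of 8 further genes of the family, Tsku (tsukushi, a secreted regulator of several growth factor pathways) was called. It rose from 1.41 ± 0.0394 to 3.74 ± 0.790 CPM at 2 weeks (SD, n = 4; log2 fold change 1.39, SE 0.18; edgeR adjusted p = 6.43e-05) and from 1.46 ± 0.370 to 2.93 ± 0.795 CPM at 8 weeks (0.98, SE 0.24; edgeR adjusted p = 0.00633). Chad (chondroadherin) stood between 0.706 and 1.233 CPM in the group means and was not called. Chadl was tested at 2 weeks and not called. Kera, Epyc, Optc, Nyx and Podnl1 were too low to be tested after TAC, with at most 5 counts of Kera or Optc in any library.

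The genes for enzymes that build the sugar chains had smaller median changes than the 10 core protein genes. Of 12 genes of linkage and chain synthesis 6 rose and 1 fell at 2 weeks (median log2 fold change 0.49), and 5 of 11 rose and 0 fell at 8 weeks (0.38). Chpf, a subunit of the chondroitin polymerase, rose with 1.03 (SE 0.15; edgeR adjusted p = 0.000183) and 0.59 (SE 0.13; 0.00381), while the xylose kinase gene Fam20b fell at 2 weeks (-0.32, edgeR adjusted p = 0.0171). Of 15 genes in the list of epimerases and sulfotransferases 9 rose at 2 weeks (median 0.63) and 4 at 8 weeks (0.32), with 0 lower. That list also holds the sulfate donor synthase genes Papss1 and Papss2 and the galactosyltransferase genes B4galt1 and B4galt4. The 4 at 8 weeks were Dsel, Dse, Papss1 and B4galt4, so that no tested sulfotransferase gene was called then. Dsel and Dse, whose products turn chondroitin into dermatan sulfate, had the smallest p of the list at both times. Dsel rose from 5.44 ± 0.623 to 14.2 ± 1.32 CPM at 2 weeks (1.38; edgeR adjusted p = 2.47e-06) and Dse from 6.18 ± 0.646 to 12.5 ± 0.834 CPM (1.01; 1.4e-05).

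Genes of their collagen partners rose in the same comparisons. Of 8 fibrillar collagen genes 7 were higher at 2 weeks (median log2 fold change 2.76) and 6 at 8 weeks (1.44), with 0 lower, Col3a1 at 2.98 and 1.43 and Col1a2 at 2.62 and 1.501. In the list of collagen VI and fibril-associated collagens 6 of 7 rose and 1 fell at each time, with Col12a1 at 3.83 and 3.32 and the exception Col6a6 at -0.51 and -1.61 (edgeR adjusted p = 0.00995 and 0.00146). Among receptors and bound growth factors 15 of 19 rose at 2 weeks and 9 of 18 at 8 weeks, with 0 lower, among them Tgfb3 (1.63 and 1.198), the biglycan receptor gene Tlr2 (1.128 and 1.238) and Ccn4 (2.64 and 2.35). Tlr4 rose at 2 weeks with 0.93 (edgeR adjusted p = 1.21e-05) and was not called at 8 weeks (0.62, SE 0.23; edgeR adjusted p = 0.0848).

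Of 11 genes for proteases and their helpers that process or cleave these proteins 7 rose and 1 (Tll2, -1.95) fell at 2 weeks, and 5 of 8 rose and 0 fell at 8 weeks. Mmp2 was at 2.01 and 1.231. Bmp1, whose product matures biglycan and osteoglycin, rose with 1.169 at 2 weeks (edgeR adjusted p = 2.47e-06) and with 0.305 at 8 weeks (edgeR adjusted p = 0.0321). Among other proteoglycans the large aggregating Vcan rose with 1.93 and 1.696. It was 1 of 3 called genes among the 4 tested of its list at 2 weeks, and the only one of 4 at 8 weeks. Of 13 heparan sulfate proteoglycan genes 9 rose and 2 fell at 2 weeks, and 7 rose and 2 fell at 8 weeks, the lower ones being Gpc1 and Spock2 at both times. All genes tested had a median of -0.002 at 2 weeks and 0.003 at 8 weeks. Scaled to library totals, Fam20b at 2 weeks (0.08) and Gpc1 at 8 weeks (0.09) turned upward without a call, Fam20b at 8 weeks was called higher (0.32, edgeR adjusted p = 0.0159), Col6a6 (-0.10), Gpc1 and Spock2 were no longer called at 2 weeks nor Spock2 at 8 weeks, and no median of these lists changed sign.

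**Figure D5:**
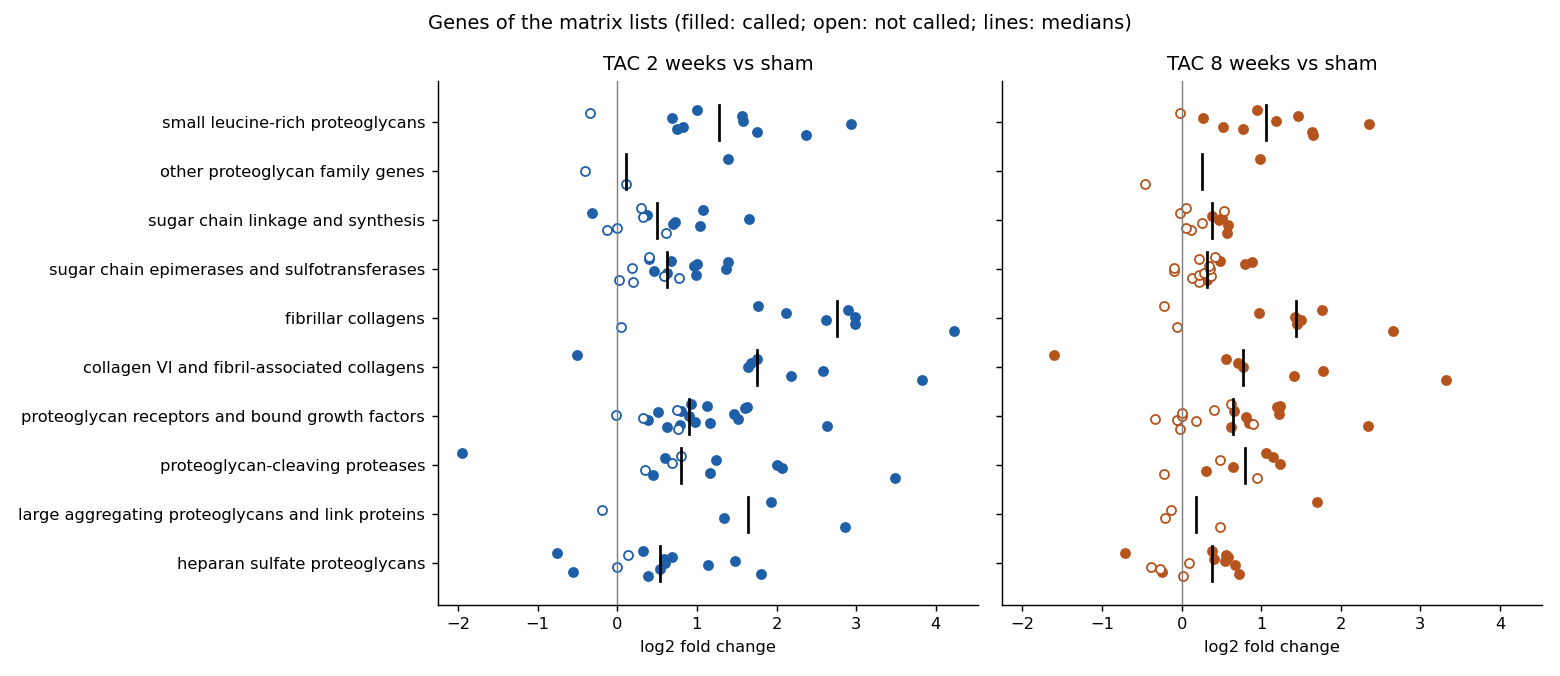
Log2 fold change (x axis) of the tested genes of 10 lists, 2 weeks (left) and 8 weeks (right) after TAC against sham, with filled points for called and open points for uncalled genes and lines for medians. The family has a median of 1.28 and 1.06, fibrillar collagens of 2.76 and 1.44, and the sugar chain enzymes of 0.63 or less.

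Markers of other cell states moved in the same libraries. The 9 activated fibroblast markers all rose at 2 weeks and summed to 701 to 1291 CPM in TAC-LVH against 56.4 to 92.4 in Sham-LVH, and the 8 tested at 8 weeks all rose, with sums of 426 to 854 against 42.0 to 81.8 CPM. Of 11 resident fibroblast markers 8 rose and 1 fell at 2 weeks (942 to 1171 against 759 to 952 CPM) and 4 rose and 1 fell at 8 weeks (872 to 1053 against 702 to 918 CPM), sums that overlapped between the groups. Gsn, which was not called at either time, made up 469 to 554 CPM of the sum in the group means of the sham and TAC hearts, while the matrix gene Mfap5 rose 6.62-fold and 5.00-fold and Pi16 2.17-fold and 2.69-fold. The marker that fell was Scara5 at both times (-0.89 and -1.39; edgeR adjusted p = 0.000717 and 0.000211). Dpt was not called at 8 weeks (0.05), and Dpep1 was called at neither time. The general fibroblast marker Pdgfra rose with 0.57 at 2 weeks (SE 0.10; edgeR adjusted p = 0.000691) and was at 0.25 at 8 weeks (SE 0.11; 0.0949). No fibroblast marker was at 0 in any group. Macrophage markers rose in 7 of 8 cases at each time (271 to 356 against 144 to 223 CPM, then 176 to 269 against 106 to 160 CPM). Cardiomyocyte markers fell in 7 of 10 cases at 2 weeks and 4 of 10 at 8 weeks and rose in none (32515 to 40485 against 50928 to 57286 CPM at 2 weeks). Scaled to library totals, 1 of the 10 rose and 4 fell at 2 weeks, and 3 rose and 2 fell at 8 weeks. Of the cartilage, tendon and valve markers, tissues where Fmod, Omd and Chad are typical, 2 of 4 rose at 2 weeks and 3 of 6 rose and 1 fell at 8 weeks, Scx and Sox9 among the higher at both. Their summed levels were 12.3 to 13.2 against 7.46 to 9.22 CPM at 2 weeks and 11.7 to 14.0 against 7.72 to 10.5 CPM at 8 weeks, with 1 of 8 markers at 0 in both sham groups. Endothelial markers rose in 4 of 8 cases at 2 weeks and 0 at 8 weeks. Of 8 smooth muscle and pericyte markers 3 rose, among them Tagln (1.03) and Cnn1 (2.03), and Abcc9 fell (-0.89) at 2 weeks, and 1 rose and 1 fell at 8 weeks, with sums of 705 to 769 against 714 to 784 CPM and then 586 to 658 against 677 to 708 CPM. Of 5 erythroid markers 0 were called at 2 weeks and 2 rose at 8 weeks. Several of these counts depend on the scaling. With library totals 7 endothelial markers rose at 2 weeks and 6 at 8 weeks, with 0 lower. Smooth muscle and pericyte markers then rose in 7 and 5 cases and resident fibroblast markers in 9 and 10, each with 1 lower. Erythroid markers rose in 0 and 5 cases, and macrophage markers stayed at 7 each time. Adipocyte, Schwann and epicardial markers summed to at most 8.68 CPM in any library. The part of these cell types in the changes of the 10 genes was not tested.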

How the data were processed

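Counts per gene were analysed for 24 libraries of mouse heart RNA (Trizol extraction, RiboZero depletion and an NEB library kit, per the labels' protocols). The authors deposited estimated counts per gene, whole numbers with no scaling. FastQC, Salmon and the build mm9 are named, per the submitters' processing notes. The tool versions, the annotation and the strand setting were not given in the sources used here. Counts are given for 43432 genes and 1 row that names no gene, with 0 counts, which was left out. Symbols (42462 identifiers), transcript lengths and gene order came from GENCODE for GRCm38, promoter windows from RefSeq. The length of a gene is that of its longest principal (APPRIS) transcript.

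EdgeR 4.0.16 in R 4.3.3 was run on each comparison's own libraries (filterByExpr, TMM, robust quasi-likelihood fit, two-sided F test, Benjamini-Hochberg adjustment over all genes tested, threshold 0.05). Differences between effects were contrasts of 4 group means. Standard errors come from the fold change and the F statistic. Ratios to Dcn used counts plus 0.5 and exact two-sided permutation tests (70 arrangements of 4 against 4, smallest p = 0.0286). Log2 CPM for correlations used a prior count of 2. DESeq2 1.42.0 and other settings were alternatives. The fits were tested on simulated data. Replicate numbers were not used as pairs. No 2 libraries were identical, and correlations between libraries were 0.972 to 0.990. Members and lists were chosen with earlier results of these data known. The lists hold 213 symbols, of which 1 matched no identifier (Wisp1, an older name of Ccn4). The named genes are the members, the other family genes, up to 4 genes with the smallest p of each matrix list, the 2 genes most like each member by correlation, and the marker lists. Col6a6, Fam20b, Tll2, Gpc1 and Spock2 were named after their values were seen.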

Additional observations from a re-analysis of the deposited data

Results flagged for a closer look

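One library lay far from the other 3 of its group. Fmod was at 1.235 CPM in Sham-LVH replicate 2 and between 1.99 and 2.10 CPM in the others, a gap of 0.876 of the group's whole range. It was 1 of 60 groups of member values checked, where chance gives such a gap in about 1 in 20.

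The effect of TAC differed from that of running by the test of the difference itself (edgeR's quasi-likelihood test, log2 scale, 4 libraries in each of 4 groups). At 2 weeks it was larger for Dcn (0.61), Bgn (1.77), Lum (1.39), Fmod (3.05), Aspn (2.16), Ogn (0.54), Prelp (1.154) and Ecm2 (0.68). At 8 weeks it was larger for Dcn (0.65), Bgn (1.67), Lum (1.00), Fmod (2.48), Aspn (1.46) and Prelp (1.112). Both sets of values share the Running and Sedentary libraries.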

How the results depend on the processing

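The number of members called higher stayed at 9 at 2 weeks under each alternative run, and at 8 or 9 at 8 weeks, where Ogn decided the count. Leaving out 1 library at a time gave 3923 to 4575 genes called in all at 2 weeks and 2984 to 4204 at 8 weeks, beside 4717 and 4032 with all libraries. Scaling to library totals gave 7609 and 6643, of which 91.9% and 91.4% were higher, against 51.5% and 50.4% with TMM. For running the count of 0 genes became 9 with DESeq2, 2 with no filter on low counts, 47 with the replicate block, and 0 to 3 when 1 library was left out (3 without Running replicate 4). Correlations between same-numbered libraries were 0.04 to 0.39 for running, -0.01 to 0.20 at 2 weeks and -0.23 to 0.09 at 8 weeks, with the own number best in 2 of 4 in each comparison, and the numbers were not taken as pairs. With the replicate block, 1 member was called lower at 2 weeks (Podn, -0.35, adjusted p = 0.0366) and 1 instead of 2 members differed between the sham groups (Podn lost its call, adjusted p = 0.0723). In the comparison of the TAC effects DESeq2 called 1 member, Aspn (-0.71). Against running, Omd at 2 weeks was called with library totals (adjusted p = 0.0080) or in a fit of all 24 libraries (0.0439), Podn with the block (0.0255), and at 8 weeks Omd (0.0307) and Ecm2 (0.00578) with library totals. No called value of a member changed sign, while Fam20b at 2 weeks and Gpc1 at 8 weeks, which are not members, did so with library totals. The causes of these shifts were not tested. Omd, with as few as 5 counts in a library, is the member that depth limits most.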
